A study of Mus musculus with 72 samples.

Results

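Transcripts of interleukins, the secreted messengers by which immune and other cells instruct each other, and of their receptors were read in mouse mammary tumours 6 days after treatment. The members are all genes of the deposited count table whose symbol begins with Il and a digit, apart from Il2ra and Il1r2. They number 28 of 1224 different genes, 17 encoding cytokines and 11 encoding receptor chains. The tumours grew from 4T1, an established mammary carcinoma line of BALB/c origin, put into the thigh of immunocompetent female BALB/c mice aged 6 to 12 weeks on day -6, although the labels call the tissue orthotopic. On day 0 the mice received 400 µg of an isotype antibody (control), 492 µg of bintrafusp alfa (BA, coded M7824 in the labels), radiation with the isotype antibody (RT), or radiation with BA (BA+RT), and they were killed on day 6, 9 mice per group. BA joins an antibody against PD-L1 to a TGF-β receptor ectodomain, so it also traps TGF-β. The sources used here do not give the radiation dose, and RNA came from whole tumours, so no value belongs to a single cell type.

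Interleukins act through receptors built from a few shared chains. The common gamma chain, encoded by Il2rg, serves the receptors for IL-2, IL-4, IL-7, IL-9, IL-15 and IL-21, and it is joined by Il2rb for IL-2 and IL-15 and by Il21r for IL-21. The IL-1 family works differently: Il1r1 binds IL-1α or IL-1β, recruits the accessory chain encoded by Il1rap, and signals through an adaptor to NF-κB. Decoy receptors such as the product of Il13ra2, which binds IL-13 with high affinity, can hold a ligand away from its signalling receptor.

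Each gene was read through 1 amplicon of 91 to 102 bases, and every member amplicon lay inside the mouse gene named beside it on the build GRCm38. The amplicons of 6 members on which the results turn are shown because each value below is a count of that stretch alone, not of the whole transcript or of its isoforms. They are written 5′ to 3′ along the transcript, in lower case throughout, and all 6 lie in coding exons. Il21r is read at chr7:125628077-125628171 on the plus strand in exon 5 of 9, Il13ra2 at chrX:147396147-147396241 on the minus strand in exon 7 of 14, and Il1r1 at chr1:40313111-40313205 on the plus strand in exon 11 of 11. On the minus strand, Il1a is read at chr2:129304677-129304771 in exon 5 of 7, Il2rb at chr15:78486402-78486495 in exon 6 of 10 and Il12rb2 at chr6:67309033-67309123 in exon 10 of 16.
Il21r: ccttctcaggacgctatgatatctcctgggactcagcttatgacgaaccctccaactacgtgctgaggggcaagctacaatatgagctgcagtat
Il13ra2: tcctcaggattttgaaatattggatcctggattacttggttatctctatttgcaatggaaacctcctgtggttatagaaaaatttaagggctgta
Il1r1: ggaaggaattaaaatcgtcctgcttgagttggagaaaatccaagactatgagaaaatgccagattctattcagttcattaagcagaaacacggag
Il1a: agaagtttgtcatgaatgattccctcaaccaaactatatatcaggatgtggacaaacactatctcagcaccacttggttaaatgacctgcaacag
Il2rb: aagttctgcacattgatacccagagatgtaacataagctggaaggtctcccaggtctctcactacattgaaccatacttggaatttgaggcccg
Il12rb2: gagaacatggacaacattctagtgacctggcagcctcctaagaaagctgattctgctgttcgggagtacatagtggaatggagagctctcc

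Every tumour RNA was read with 2 targeted panels. Libraries held 959532 to 2616197 counts on panel 1 and 314621 to 841046 on panel 2, and the irradiated groups were read more deeply. Levels are given as CPM, the counts of a gene scaled to a common library total with TMM factors, a trimmed-mean correction between libraries. They can be compared between mice but not between genes, since amplicons differ in how well they are copied. All member values are from panel 1 unless panel 2 is named. Epcam, an epithelial surface marker, had 7356 to 23435 counts in every tumour, and the sum of 2 skeletal muscle markers spanned 255.97 to 5681.6 CPM over all mice, while Cd79a, a B cell marker, had 0 to 3 counts. A difference in such tissue cannot tell fewer cells of a type from less RNA per cell.

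The low-count filter passed 17 of the 28 members, 7 cytokines and 10 receptors; the other 11 were too sparse to test. A gene was called when its edgeR p, adjusted over all 1038 tested genes, lay under 0.05. Between RT and control tumours 7 members were called higher and 2 lower; of all tested genes 41.6% were called, 20.5% higher and 21.1% lower. Between BA and control 4 were higher and 4 lower, beside 27% of all genes, 12.5% higher and 14.5% lower. Between BA+RT and control 6 were higher and 4 lower, beside 47.6% of all genes, 23.4% higher and 24.2% lower. BA+RT differed from RT alone in 3 members, all lower, beside 10.8% of all genes, 3.66% higher and 7.13% lower. It differed from BA alone in 10 members, 7 of them higher and 3 lower, beside 53.5% of all genes, 27.1% higher and 26.4% lower. With 17 members tested, none of these shares was compared with the background by a test. The median log2 fold change of the 17 members was 0.25 with RT, 0.07 with BA and 0.22 with BA+RT against control, beside -0.01, 0.00 and 0.01 over all tested genes. Scaling by the panels' reference genes moved the median of all genes to 0.188 with RT, 0.143 with BA+RT against control and 0.199 with BA+RT against BA. The members' split then became 8 higher and 1 lower with RT, and 9 higher and 3 lower with BA+RT against control, beside 422 of all 1038 genes higher and 79 lower with RT, and 387 higher and 157 lower with BA+RT. No called member changed direction.

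**Figure D1:**
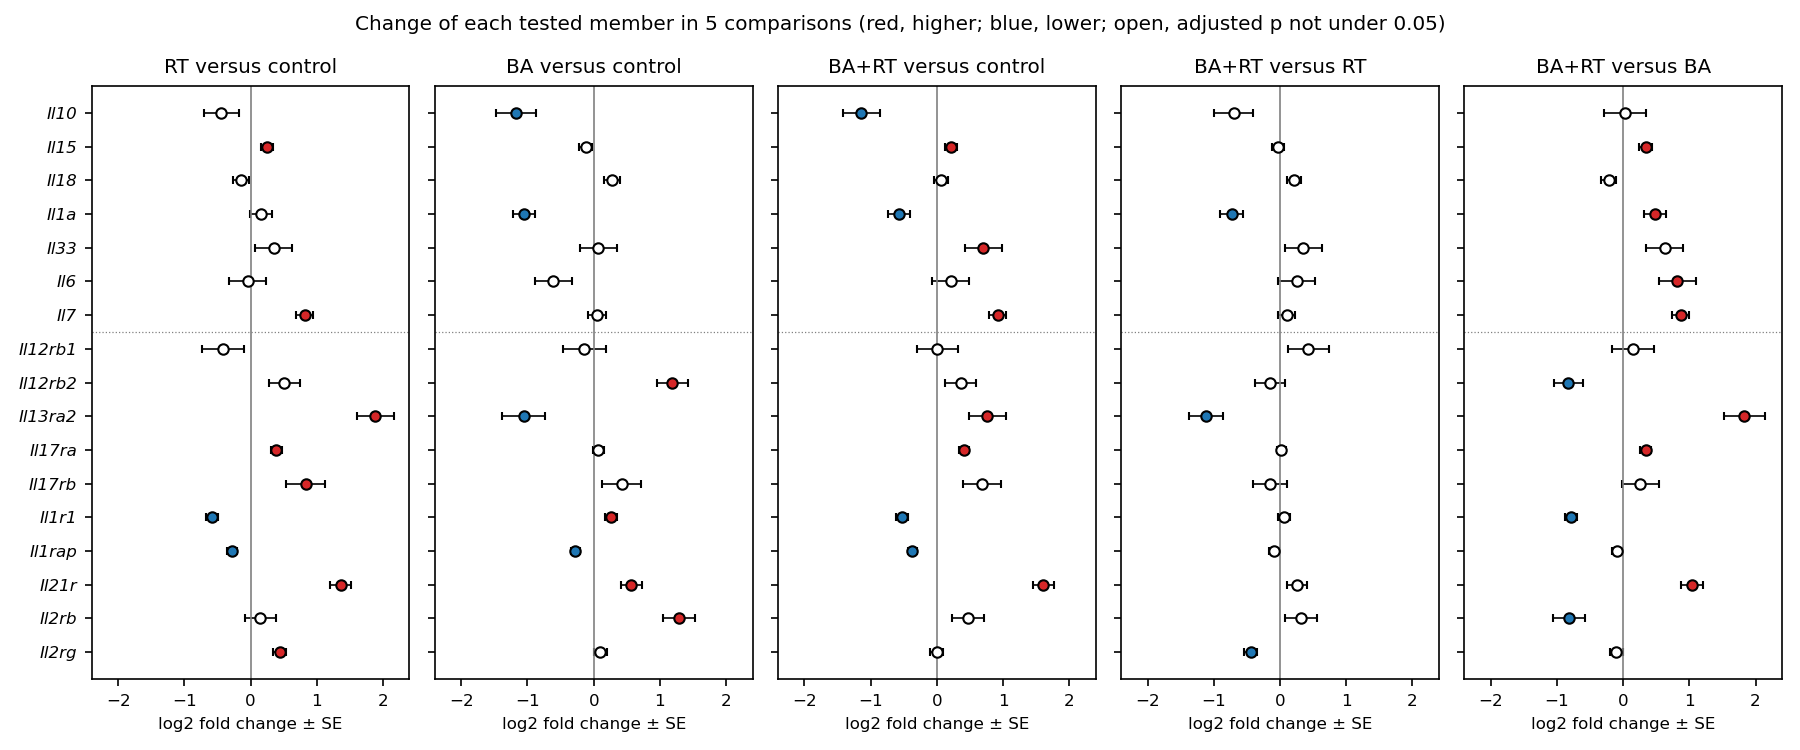
Log2 fold change (horizontal axis, ± SE) of the 17 tested members in 5 comparisons, cytokines above the dotted line and receptors below it; filled points passed an edgeR adjusted p of 0.05, red for higher and blue for lower. Il21r and Il13ra2 lie far to the right with RT, Il1a, Il10 and Il13ra2 to the left with BA, and only 3 points, all on the left, are filled for BA+RT against RT.

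Among the ligands of the common gamma chain, Il7, the stromal survival factor of lymphocytes, was higher in irradiated tumours. Il7 lay at 57.3 to 109 CPM in control tumours (median 72.8) and at 55.0 to 109 CPM with BA (median 80.9). With RT it lay at 113 to 187 CPM (median 123) and with BA+RT at 109 to 176 CPM (median 145). All 9 RT tumours thus lay above the whole control range, as did 8 of the 9 BA+RT tumours. The increase was 1.77-fold with RT (log2 fold change 0.82, SE 0.13, adjusted p = 5.37e-06) and 1.89-fold with BA+RT (0.92, SE 0.13, adjusted p = 7.23e-07). Against BA, BA+RT tumours held 1.83-fold more (0.87, SE 0.13, adjusted p = 1.69e-06), whereas BA alone differed from control by 0.05 (adjusted p = 0.816).

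Il15, which encodes a survival factor of natural killer and memory CD8 T cells, differed less. Its median was 157 CPM in control, 143 in BA, 179 in RT and 177 in BA+RT tumours, and the ranges of all 4 groups overlapped. It was called higher in BA+RT than in BA tumours (1.27-fold, log2 fold change 0.34, SE 0.10, adjusted p = 0.00286), where 5 of 9 mice lay above the BA range. The call with RT against control (log2 fold change 0.25) was lost when any of 9 single mice was left out: control mouse 3, 4, 5, 7 or 9, or RT mouse 22, 23, 24 or 27 (adjusted p up to 0.0891). The call with BA+RT against control (0.22) was lost in 26 of the 36 leave-one-out fits, with an adjusted p of up to 0.126 without BA+RT mouse 42.

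The lymphocyte-derived ligands of the common gamma chain on the panels, Il2, Il4 and Il21, and the cytokine Il13 were close to the detection limit. Il2, the T cell growth factor, had 17 counts in 11 of 36 mice, and Il21, a product of helper T cells, had 10 counts in 4 mice. Il4 and Il13, the signature cytokines of type 2 immunity, had 67 and 77 counts over all mice, with at most 6 and 8 in any mouse. None of these 4 cytokines was tested, and a difference in them was not detectable at this depth.

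IL-1 family ligands went different ways. Il1a, which encodes the alarm cytokine IL-1α, lay at 236 to 587 CPM in control tumours (median 313) and at 122 to 227 CPM with BA (median 163). In irradiated tumours it lay at 286 to 595 CPM (median 387) and with BA+RT at 169.8 to 311 CPM (median 230.1). All 9 BA tumours lay below the lowest control tumour, and 6 of 9 BA+RT tumours lay below the lowest RT tumour. Il1a fell 2.07-fold with BA (log2 fold change -1.05, SE 0.17, adjusted p = 2.86e-05) and stood 1.66-fold lower in BA+RT than in RT tumours (-0.73, SE 0.17, adjusted p = 0.00464). The test of whether these changes with BA differed gave 0.32 (SE 0.24, adjusted p = 0.451). BA+RT tumours held 1.48-fold less than control (-0.57, SE 0.17, adjusted p = 0.00598; -0.41 with an adjusted p of 0.0722 under reference gene scaling) but more than BA tumours (log2 fold change 0.48). RT against control, at 0.16, was not called (adjusted p = 0.472).

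The other IL-1 family cytokines gave a single call. Il33, a nuclear alarmin of stromal and epithelial cells, had medians of 143, 149, 158 and 205 CPM in control, BA, RT and BA+RT tumours, and was called higher in BA+RT than in control tumours by 0.70 on the log2 scale. In that comparison 6 of 9 BA+RT mice lay above the control mean, and 1 tumour, BA+RT mouse 45, held 519 CPM where the next held 269. That tumour also had the highest skeletal muscle marker sum of all mice (5681.6 CPM). Within its group it had the highest neutrophil (3863.2 CPM), fibroblast (77383 CPM), endothelial (191.76 CPM) and mast cell (434.02 CPM) sums and the lowest epithelial sum (4390.7 CPM). Control mouse 6, the highest control tumour for Il33, Il6 and Il1a, had a muscle sum of 4947.7 CPM. It also had the highest fibroblast sum of all mice (107240 CPM) and, among control tumours, the highest neutrophil sum (4834.8 CPM) and the lowest epithelial sum (9415.7 CPM). The part of tissue content in these levels was not tested. Without BA+RT mouse 45 the Il33 difference was 0.41 (adjusted p = 0.184). The call was also lost without control mouse 1, 4, 8 or 9 or BA+RT mouse 38, 41 or 42 (adjusted p between 0.0522 and 0.0797). Il18, which drives interferon-γ release from lymphocytes, had medians of 453, 512, 405 and 465 CPM and was called in none of the comparisons. Its difference of 0.28 with BA (SE 0.12, adjusted p = 0.0647) would be called without control mouse 1 (0.33, adjusted p = 0.0311) or BA+RT mouse 45 (0.27, adjusted p = 0.0462). Il1b, the inflammasome product of myeloid cells, had 7 counts on panel 2 and 2 on panel 1 in all 36 mice, through an amplicon that lies mostly in the untranslated end of the transcript.

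Il10, which encodes a cytokine that restrains macrophages and dendritic cells, was lower than in control tumours both with BA and with BA+RT. On panel 2 it lay at 25.7 to 82.5 CPM in control tumours (median 53.9), 5.37 to 53.7 with BA (median 19), 25.3 to 58.6 with RT (median 37.5) and 10.4 to 47.3 with BA+RT (median 21.4). Below the lowest control tumour lay 5 of 9 BA and 6 of 9 BA+RT tumours, so the ranges overlapped. These levels rest on 3 to 46 counts per mouse. Il10 fell 2.25-fold with BA (log2 fold change -1.17, SE 0.30, adjusted p = 0.00398) and 2.2-fold with BA+RT (-1.14, SE 0.28, adjusted p = 0.00123). The same amplicon on panel 1 gave -1.20 and -1.30 for these comparisons (adjusted p = 0.00221 and 0.000295). RT against control was not called on panel 2 (-0.44, SE 0.27, adjusted p = 0.201), whereas panel 1 called it lower (-0.86, SE 0.28, adjusted p = 0.0118). BA+RT against RT gave -0.70 (adjusted p = 0.11), and -0.88 (adjusted p = 0.0318) without BA+RT mouse 45, the highest of its group.

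Il6, a driver of acute-phase and STAT3 signalling, had medians of 74.9 CPM in control, 56.9 in BA, 86.4 in RT and 77.9 in BA+RT tumours. It was called higher in BA+RT than in BA tumours, by 0.82 on the log2 scale. BA+RT mouse 45, with 303 CPM beside 108 for the next mouse, carried that call: without it the difference was 0.39 (adjusted p = 0.141). All 9 BA tumours lay below the control mean of 86.1 CPM, and BA against control gave -0.61 (SE 0.28, adjusted p = 0.106), which was called without BA+RT mouse 45 (-0.62, adjusted p = 0.0275).

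**Figure D2:**
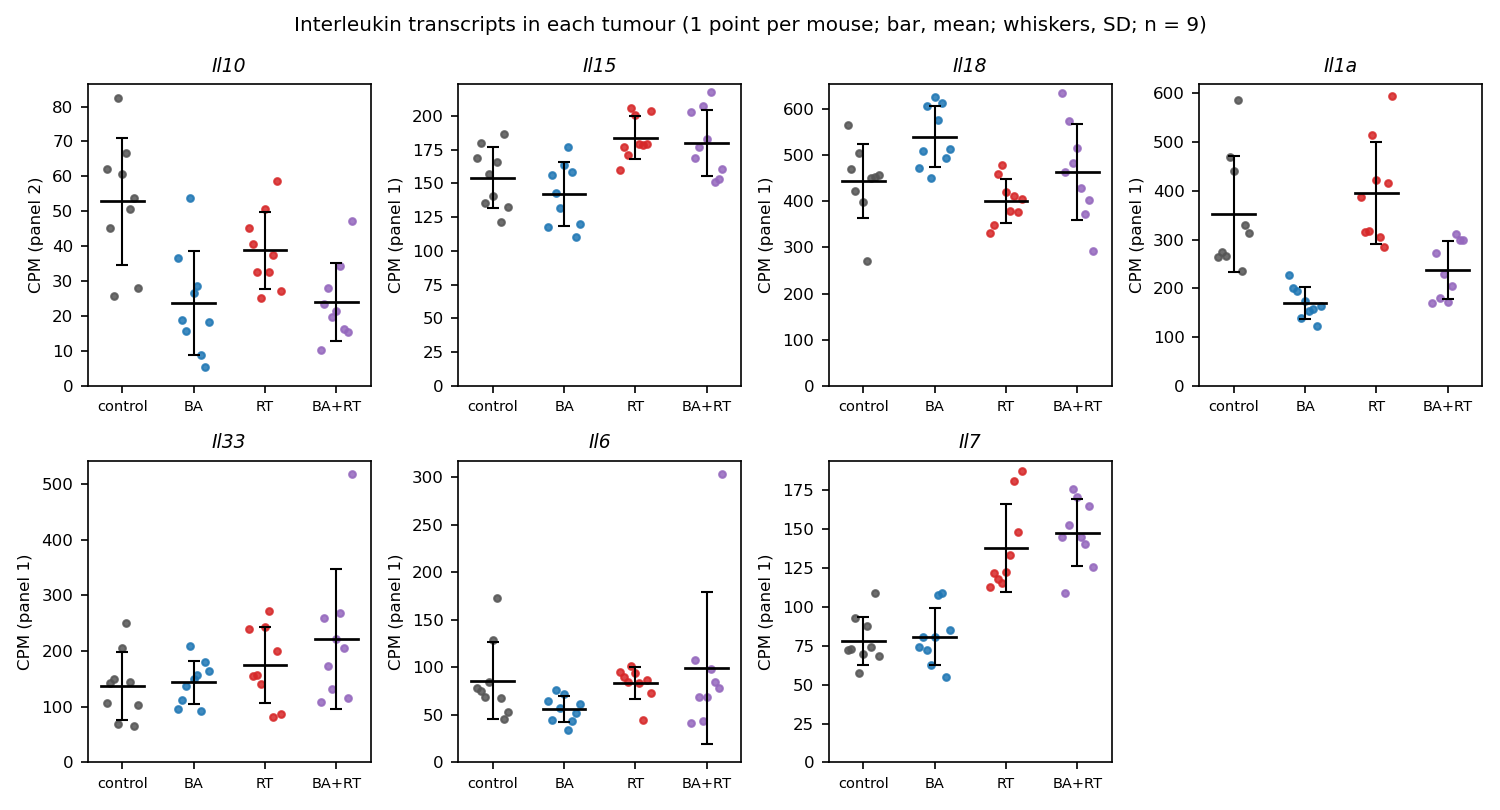
CPM (vertical axis, from 0) of the 7 tested cytokines in each tumour, 9 mice per group, with the mean as a bar and the SD as whiskers; Il10 is from panel 2. All 9 RT tumours lie above the control range for Il7, all 9 BA tumours lie below it for Il1a, and 1 BA+RT tumour stands alone at 519 CPM for Il33 and 303 CPM for Il6.

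The remaining cytokines were not tested. Il17a, the product of Th17 and gamma-delta T cells, had 0 counts in all 36 libraries, which allows a level of up to 0.0491 CPM (3 counts of 61068009, counting error only), and Il17b, another member of its family, had 3 counts. Il22, an epithelial barrier cytokine, had 9 counts, all in irradiated tumours: 5 with RT and 4 with BA+RT. Il12b, the shared p40 chain of IL-12 and IL-23, had 110 counts, of which control tumours held 15, BA tumours 36, RT tumours 32 and BA+RT tumours 27. Scaled for depth, its group means were 1.06, 2.92, 1.79 and 1.55 CPM in that order. Il5, the eosinophil growth factor read only on panel 2, had 108 counts, with 18 in control, 23 in BA, 40 in RT and 27 in BA+RT tumours, and its receptor gene Il5ra had 27, of which RT tumours held 11 and BA+RT tumours 12. With at most 10 counts per mouse these sums carry no test. The sums are not scaled for depth, and the irradiated groups were read more deeply.

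Turning to the receptors, Il21r separated irradiated from unirradiated tumours. It lay at 19.4 to 55.7 CPM in control tumours (median 28.9) and 39.9 to 63.0 CPM with BA (median 47.6). With RT it lay at 66.9 to 115 CPM (median 79.5) and with BA+RT at 75.1 to 124 CPM (median 100.2). No irradiated tumour overlapped any unirradiated tumour. The increase was 2.56-fold with RT (log2 fold change 1.36, SE 0.16, adjusted p = 1.9e-08), 3.06-fold with BA+RT (1.61, SE 0.16, adjusted p = 4.63e-10) and 2.06-fold for BA+RT against BA (1.04, SE 0.16, adjusted p = 1.47e-06). BA alone raised Il21r 1.49-fold (0.57, SE 0.16, adjusted p = 0.00737), with all 9 mice above the control mean but only 1 above the control range. BA+RT against RT gave 0.26 (SE 0.15, adjusted p = 0.31), and the change with BA did not differ detectably between irradiated and unirradiated tumours (-0.32, SE 0.22, adjusted p = 0.405).

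Il2rb, the signalling chain for IL-2 and IL-15 on T and natural killer cells, was instead highest with BA alone. Control tumours held 16.6 to 63.8 CPM (median 27.1), BA tumours 52.5 to 139 CPM (median 76.2), RT tumours 24.3 to 46.4 CPM (median 35.1) and BA+RT tumours 29.0 to 108 CPM (median 38.9). Of the 9 BA tumours 5 lay above every control tumour, and 8 of 9 BA+RT tumours lay below every BA tumour. The rise with BA was 2.45-fold (log2 fold change 1.29, SE 0.24, adjusted p = 0.000125), and BA+RT tumours held 1.77-fold less than BA tumours (-0.82, SE 0.24, adjusted p = 0.00419). Neither RT (0.15, adjusted p = 0.658) nor BA+RT (0.47, adjusted p = 0.104) was called against control, the latter changing to 0.65 (adjusted p = 0.0223) without control mouse 8 and to 0.19 (adjusted p = 0.468) without BA+RT mouse 40.

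Il12rb2, the IL-12 receptor chain that marks type 1 lymphocytes, was likewise highest with BA, with medians of 5.60 CPM in control, 16.4 in BA, 11 in RT and 8.31 in BA+RT tumours. Its ranges were 3.81 to 14, 8.14 to 21.1, 5.17 to 12.5 and 5.86 to 15.9 CPM, resting on 6 to 33 counts per mouse. Of 9 BA tumours 8 exceeded every control tumour. Il12rb2 rose 2.28-fold with BA (log2 fold change 1.19, SE 0.23, adjusted p = 0.000132) and stood 1.78-fold lower in BA+RT than in BA tumours (-0.83, SE 0.22, adjusted p = 0.00166). RT gave 0.51 (SE 0.23, adjusted p = 0.0658), which was called without control mouse 8 (0.68, adjusted p = 0.0121), without RT mouse 19 (0.60, adjusted p = 0.0302) or under reference gene scaling (0.73, adjusted p = 0.0117). BA+RT gave 0.36 (adjusted p = 0.191; 0.54 and 0.0455 without control mouse 8). Il12rb1, its partner chain, was called in none of the comparisons, with medians of 61.5, 76.8, 73.7 and 94.9 CPM in control, BA, RT and BA+RT tumours, and control mouse 8 held 324 CPM of it where the next control tumour held 98.0.

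Il2rg, the common gamma chain itself, had medians of 288 CPM in control, 323 in BA, 419 in RT and 286 in BA+RT tumours. RT tumours lay at 348 to 455 CPM, and 8 of 9 BA+RT tumours lay below that whole range while the ninth, mouse 40, held 458 CPM. Il2rg rose 1.36-fold with RT (log2 fold change 0.44, SE 0.10, adjusted p = 0.000756) and stood 1.36-fold lower in BA+RT than in RT tumours (-0.44, SE 0.10, adjusted p = 0.00518). BA gave 0.10 (adjusted p = 0.518) and BA+RT 0.00 (adjusted p = 0.975) against control.

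For 2 of the 17 tested members the change with BA depended on radiation, both lower, where 8.29% of all genes were called, 3.37% higher and 4.91% lower. Il12rb2 changed by 1.19 with BA in unirradiated tumours and by -0.15 in irradiated ones, a difference of -1.34 (SE 0.31, adjusted p = 0.00528). Il2rg changed by 0.10 and by -0.44, a difference of -0.54 (SE 0.15, adjusted p = 0.016), which was -0.55 with an adjusted p of 0.0592 under reference gene scaling. For Il2rb the difference was -0.97 (SE 0.34, adjusted p = 0.0702), and it was called without control mouse 8 (-1.15, adjusted p = 0.0157) or without BA+RT mouse 40 (-1.25, adjusted p = 0.00391). These 2 mice were the highest of their groups for Il2rb, Il12rb1, Il12rb2 and Il2rg.

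**Figure D3:**
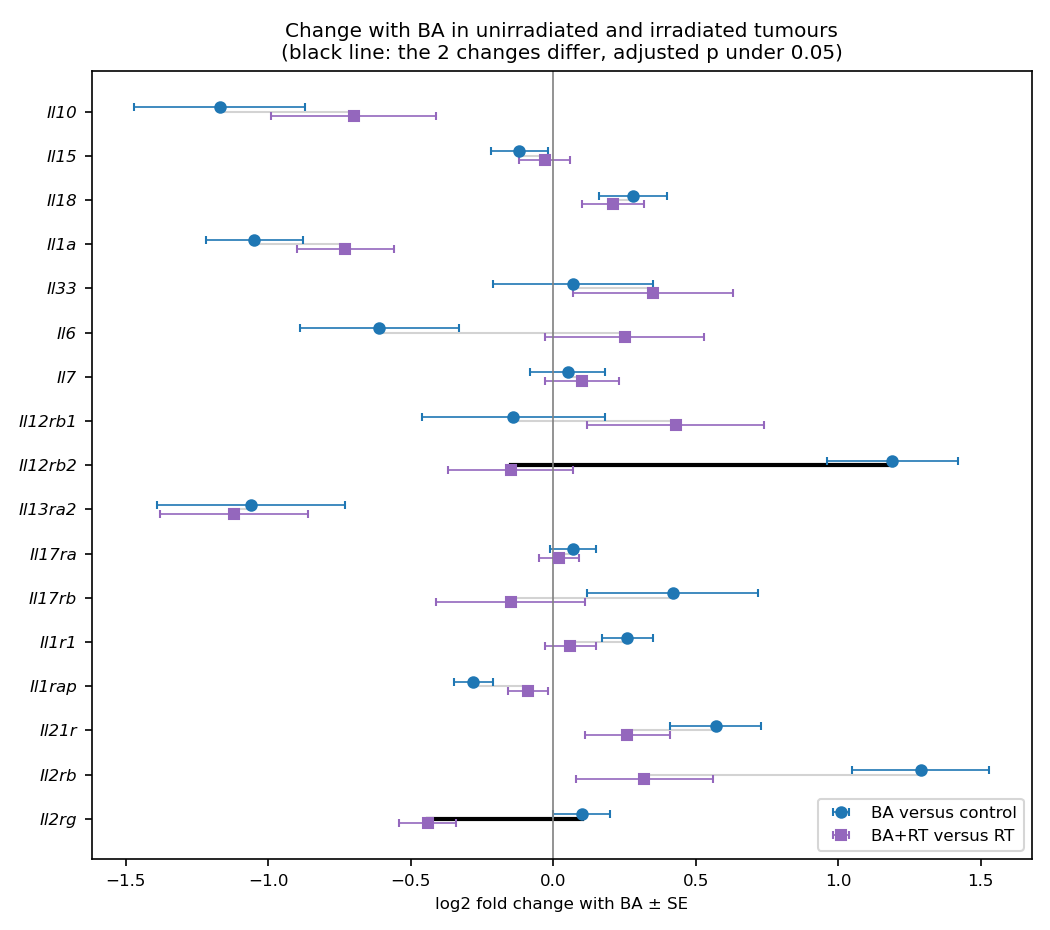
Log2 fold change with BA (horizontal axis, ± SE) of each tested member in unirradiated tumours (circles, BA against control) and irradiated tumours (squares, BA+RT against RT). Black lines join the pairs whose difference passed an edgeR adjusted p of 0.05, which are Il12rb2 and Il2rg. Both points lie to the left of 0 for Il1a, Il10, Il13ra2, Il1rap and Il15.

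Levels of immune cell markers are given beside these receptors. The summed natural killer cell markers had medians of 92.2 CPM in control, 484 in BA, 107 in RT and 166 in BA+RT tumours, with ranges of 51.1 to 349.7, 352 to 1070.4, 78.6 to 154 and 112 to 788 CPM. Of 7 tested of 9 listed markers 6 were higher with BA than in control, beside 12.5% of all genes. In BA+RT against BA tumours 6 were lower, beside 26.4% of all genes. In BA+RT against RT tumours 3 were higher, beside 3.66% of all genes. The summed T cell markers had medians of 132, 294, 94.8 and 124 CPM, with 92.4 to 343 in control, 193 to 577 with BA, 83.2 to 318 with RT and 99.1 to 288 with BA+RT. Of 12 tested of 14 listed T cell markers 6 were higher with BA, and 10 were lower in BA+RT than in BA tumours. With RT 3 were lower and 9 were not called, where 21.1% of all genes were lower. Neither list had a marker at 0 in all mice, although Cd3e, a chain of the T cell receptor complex, had only 3 to 56 counts and Ncr1, a natural killer cell receptor, 1 to 49. Control mouse 8 and BA+RT mouse 40 had the highest natural killer marker sums of their groups, at 349.69 and 787.58 CPM. Il2rg itself was higher with RT, where 3 T cell markers were lower and 9 were not called. It was lower in BA+RT than in RT tumours, where 3 natural killer cell markers were higher. Of 9 listed macrophage markers 8 were on the panels and 7 were tested, since Marco was at 0 in all mice. The 8 summed to medians of 4222 CPM in control, 5104 in BA, 5190.3 in RT and 4644 in BA+RT tumours. Their ranges were 3984 to 4886, 4567 to 5417, 4124 to 5779 and 4276 to 5075 CPM. Of the 7 tested, 4 rose and 1 fell with RT, beside 20.5% and 21.1% of all genes. In BA+RT against RT tumours 3 were lower, beside 7.13% of all genes. For 4 the change with BA was lower in irradiated than in unirradiated tumours, beside 4.91% of all genes. Among them were Msr1 (-0.84, adjusted p = 0.000137) and Itgam (-0.65, adjusted p = 0.00259). The part of lymphocytes and macrophages in the values of Il2rb, Il12rb2 and Il2rg was not tested.

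Il13ra2, the decoy receptor for IL-13, showed the widest change with RT of any tested member. Control tumours held 3.18 to 15.8 CPM (median 5.54), BA tumours 0.781 to 5.08 CPM (median 3.87), RT tumours 18.1 to 39.1 CPM (median 24) and BA+RT tumours 5.47 to 23.7 CPM (median 12.3). No RT tumour overlapped the control range, 8 of 9 BA+RT tumours lay below every RT tumour, and no BA+RT tumour overlapped the BA range. The gene rose 3.69-fold with RT (log2 fold change 1.88, SE 0.28, adjusted p = 1.5e-06) and fell 2.09-fold with BA (-1.06, SE 0.33, adjusted p = 0.0146). BA+RT tumours held 2.18-fold less than RT tumours (-1.12, SE 0.26, adjusted p = 0.00464) and 3.55-fold more than BA tumours (1.83, SE 0.31, adjusted p = 9.99e-06). In irradiated and unirradiated tumours the changes with BA were thus -1.12 and -1.06 on the log2 scale, and the test of their difference gave -0.06 (SE 0.53, adjusted p = 0.967), an error too wide to show that they are equal.

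Depth limits the lower end of these Il13ra2 values, since BA tumours held 1 to 9 counts each. On panel 2, where the same amplicon was read again, the rise with RT was 1.62 (SE 0.38, adjusted p = 0.000786) and the excess of BA+RT over BA 1.44 (SE 0.45, adjusted p = 0.00748). The differences of BA from control (-0.73, adjusted p = 0.289) and of BA+RT from RT (-0.91, adjusted p = 0.0798) kept their direction there without being called. On panel 1 the difference of BA from control was also not called by limma on regularized log values (-0.2, adjusted p = 0.0701). The difference of BA+RT from control (0.76, SE 0.28, adjusted p = 0.0259) was 0.71 on panel 2 (adjusted p = 0.14) and 0.68 with all libraries thinned to the smallest total (adjusted p = 0.0549). An edgeR fit on only the groups compared gave 0.77 (adjusted p = 0.0606). The call of BA+RT against control was also lost without control mouse 1, 4, 5, 7 or 9 or without BA+RT mouse 38 or 45, with values between 0.59 and 0.70 and an adjusted p of up to 0.0787.

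The signalling chains of the IL-1 receptor were both lower after RT. Il1r1 lay at 660.4 to 916 CPM in control tumours (median 817), 836 to 1187 with BA (median 935), 446 to 643 with RT (median 523) and 472 to 797 with BA+RT (median 536). All 9 RT tumours lay below every control tumour, and all 9 BA+RT tumours lay below every BA tumour. Il1r1 fell 1.49-fold with RT (log2 fold change -0.58, SE 0.09, adjusted p = 1.86e-06), was 1.43-fold lower in BA+RT than in control tumours (-0.52, SE 0.09, adjusted p = 8.75e-06) and 1.72-fold lower than in BA tumours (-0.78, SE 0.09, adjusted p = 7.35e-09). With BA alone it rose 1.2-fold (0.26, SE 0.09, adjusted p = 0.0245), a call lost without control mouse 6 (0.22, adjusted p = 0.0559) or BA mouse 14 (0.22, adjusted p = 0.0624). Il1r1 and its ligand Il1a therefore differed in opposite directions between BA and control tumours.

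Il1rap, the accessory chain that also serves IL-33 receptors, was lower in every treated group. Its medians were 323 CPM in control, 272 in BA, 265 in RT and 257 in BA+RT tumours, and 7 of 9 BA, 6 of 9 RT and 8 of 9 BA+RT tumours lay below the lowest control tumour at 290.2 CPM. The decrease was 1.22-fold with BA (log2 fold change -0.28, SE 0.07, adjusted p = 0.00153), 1.22-fold with RT (-0.28, SE 0.07, adjusted p = 0.000831) and 1.29-fold with BA+RT (-0.37, SE 0.07, adjusted p = 2.78e-05). Under reference gene scaling the RT value was -0.08 (adjusted p = 0.33), while the other comparisons with control kept their calls.

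The IL-17 receptor gene Il17ra was higher in irradiated tumours although Il17a itself was not counted. Its medians were 371 CPM in control, 389 in BA, 490.1 in RT and 513 in BA+RT tumours; 8 of 9 RT and 7 of 9 BA+RT tumours exceeded every control tumour. It rose 1.31-fold with RT (log2 fold change 0.39, SE 0.08, adjusted p = 6.6e-05), 1.33-fold with BA+RT (0.41, SE 0.08, adjusted p = 3.26e-05) and 1.27-fold for BA+RT against BA (0.34, SE 0.08, adjusted p = 0.000286). Il17rb, a receptor chain for IL-25 and IL-17B, was sparse, at 1.52 to 7.53 CPM in control and 2.71 to 9.38 CPM with RT, from 2 to 22 counts per mouse over all groups. It rose 1.77-fold with RT (0.83, SE 0.29, adjusted p = 0.019). BA+RT against control, at 0.68 (SE 0.29, adjusted p = 0.0517), was called when control mouse 3 or 6, BA mouse 14, RT mouse 26 or BA+RT mouse 39, 44 or 45 was left out (adjusted p between 0.0148 and 0.0488).

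**Figure D4:**
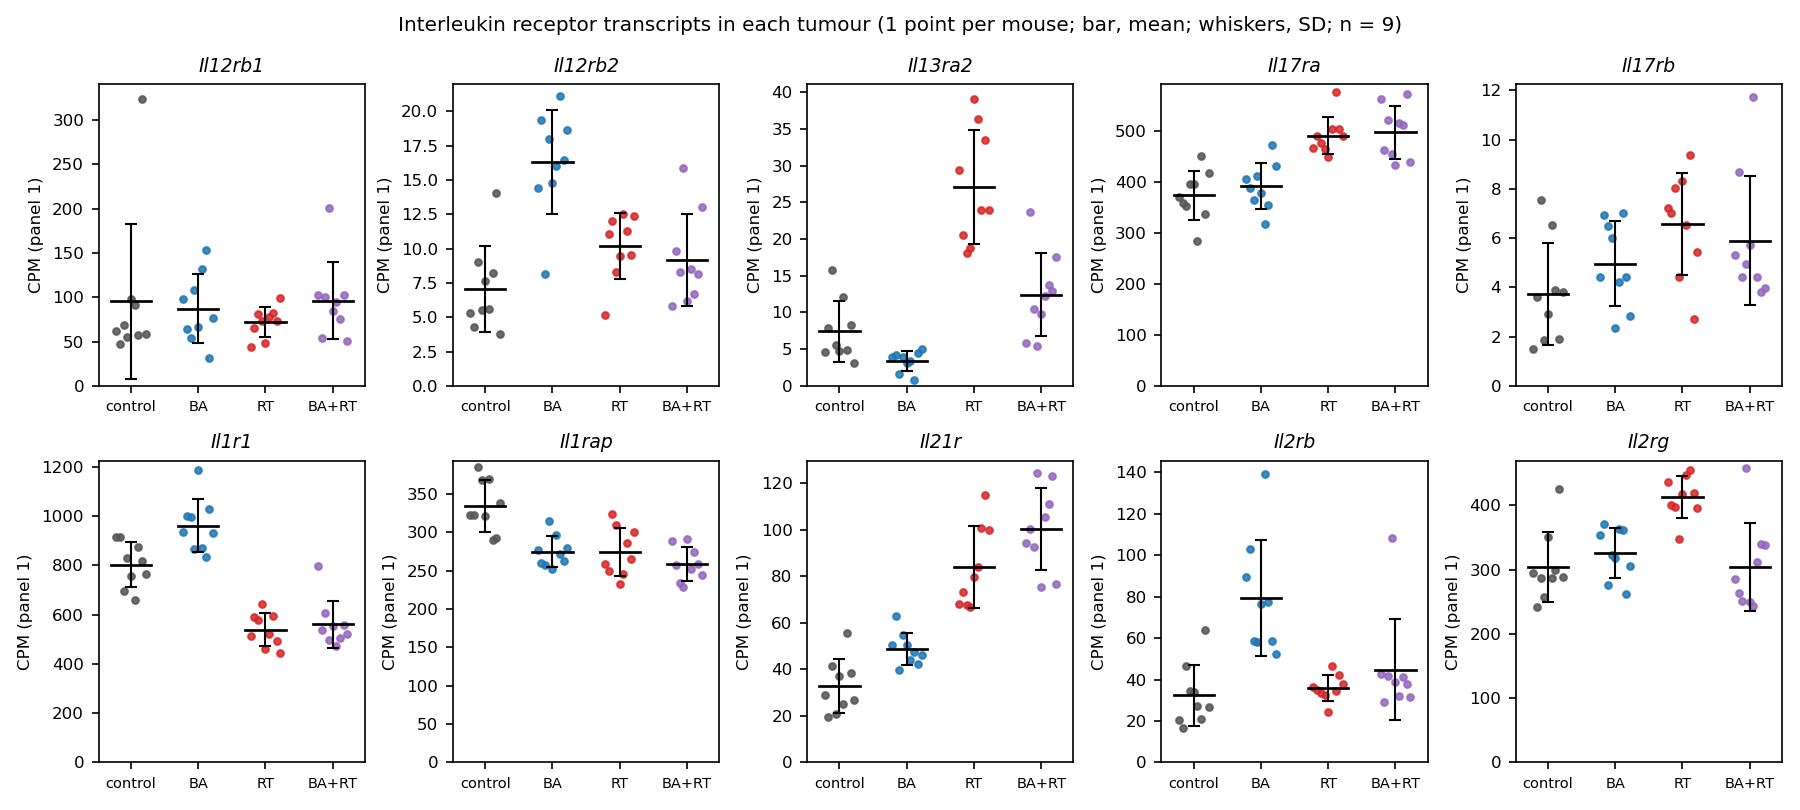
CPM on panel 1 (vertical axis, from 0) of the 10 tested receptor chains in each tumour, 9 mice per group, with the mean as a bar and the SD as whiskers. Irradiated and unirradiated tumours do not overlap for Il21r, all 9 RT tumours lie below the control range for Il1r1, Il13ra2 is highest with RT, and Il12rb2 and Il2rb are highest with BA.

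Members differed in how far mice of the same group spread. The within-group SD of log2 CPM was 0.64 for Il12rb1, 0.61 for Il33, 0.60 for Il10 and 0.57 for Il6, and 0.14 for Il1rap, 0.16 for Il17ra and 0.18 for Il1r1. Control mouse 8 and BA+RT mouse 40 were each the highest of their group for 6 members, 5 of which were shared: Il12rb1, Il12rb2, Il2rb, Il2rg and Il7.

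The repeat reading of the same amplicons on the other panel bears on Il1a, Il10 and Il13ra2, the tested members on both panels. Over the 36 mice the log2 CPM values on the panels had a Pearson correlation of 0.974 for Il1a, 0.782 for Il10 and 0.865 for Il13ra2, which describes points that share the tumour RNA. For Il1a panel 2 gave -1.03 with BA (SE 0.17, adjusted p = 3e-05) and -0.74 for BA+RT against RT (SE 0.16, adjusted p = 0.00301), close to the values on panel 1. Il4, Il13 and Il1b were also on both panels but had at most 67, 77 and 7 counts there.

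**Figure D5:**
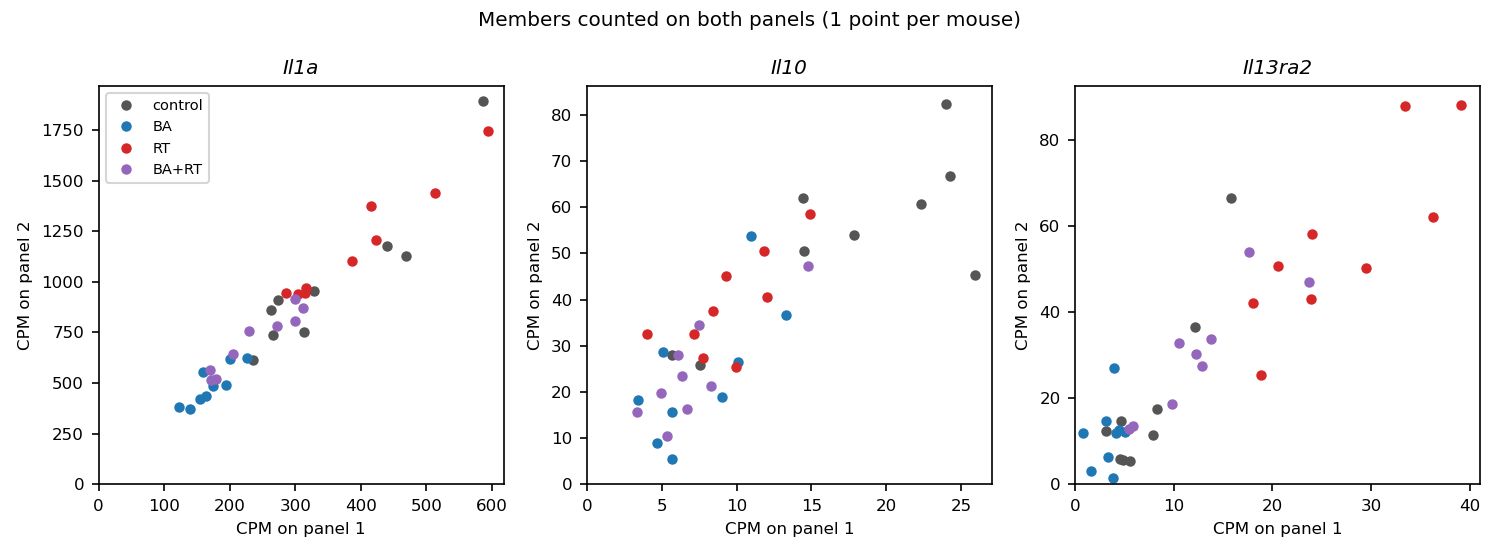
CPM on panel 2 (vertical axis) against CPM on panel 1 (horizontal axis) for Il1a, Il10 and Il13ra2, 1 point per mouse, coloured by group. Points for Il1a follow a narrow line, with the BA tumours at its lower end, and those for Il10 scatter most.

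Genes related to these families but outside the members were measured beside them. Of 6 tested (Il1r2, Il2ra, Csf2rb, Csf2, Clcf1 and Ebi3), RT raised 1 and lowered 2: Clcf1, a gp130 cytokine, rose by 0.49 (adjusted p = 1.38e-05), while Il1r2, the decoy receptor for IL-1, fell by 0.92 (adjusted p = 5.37e-06) and Csf2rb, the chain shared by IL-3, IL-5 and GM-CSF receptors, fell by 0.50 (adjusted p = 7.67e-06). Il1r2 thus fell with RT as Il1r1 and Il1rap did, whereas the decoy Il13ra2 rose. With BA 2 of the 6 rose, Il2ra by 1.53 (adjusted p = 3.21e-05) and Csf2rb by 0.29 (adjusted p = 0.00793). Il2ra, the high-affinity IL-2 chain, remained higher in BA+RT than in RT tumours (1.03, adjusted p = 0.00632), a comparison in which Il2rb gave 0.32 (adjusted p = 0.435) and Il2rg was lower. In BA+RT against control 3 of the 6 rose and 2 fell. Of all genes 41.6% were called with RT, 27% with BA and 47.6% with BA+RT, each against control.

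Of 9 tested JAK, STAT and SOCS genes, which carry signals of gamma chain, IL-6 and IL-10 receptors, 2 fell with RT, Socs2 by 0.24 (adjusted p = 0.000194) and Jak2 by 0.36 (adjusted p = 0.00326). With BA only Stat4, the transducer of IL-12 signals, was called, at 1.08 (SE 0.31, adjusted p = 0.00957). It was lower in BA+RT than in BA tumours by -1.43 (SE 0.31, adjusted p = 0.00029). Il12rb2 had the same directions in these comparisons. Against control Stat4 gave -0.11 with RT and -0.35 with BA+RT, where Il12rb2 gave 0.51 and 0.36, none of them called. Of 8 tested genes of the IL-1 adaptor, inflammasome and NF-κB list, RT raised Myd88, the adaptor of IL-1 receptors, by 0.19 (adjusted p = 0.0151) and lowered Sigirr, an inhibitory receptor of the family, by 0.87 (adjusted p = 1.86e-06). BA raised Pycard, an inflammasome adaptor, by 0.42 (adjusted p = 0.00144). The share of all genes called against control was 41.6% with RT and 27% with BA. In BA+RT against control 3 of the 9 and 4 of the 8 genes of these lists were called, beside 47.6% of all genes. Against BA 3 of the 9 and 3 of the 8 were called, beside 53.5% of all genes.

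Among transcription factors of T cell lineages, Foxp3 of regulatory T cells rose with BA by 1.60 (adjusted p = 8.18e-06), and Eomes of cytotoxic cells fell by 0.38 (adjusted p = 0.00909). Foxp3 was lower in BA+RT than in BA tumours by -2.02 (adjusted p = 2.69e-08), beside the lower Il2rb and Il12rb2 in the same comparison. Eomes went the other way there and was higher in BA+RT than in BA tumours, by 0.39 (adjusted p = 0.0032).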

How the data were processed

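The authors deposited raw whole-number counts for each amplicon, as headers and values show; the aligner, and whether counts are of reads or molecular barcodes, are not stated there. Another deposited table holds log2 values from the regularized log of DESeq2, per the submitters' processing notes, and was used for an alternative test. Position columns are headed GRCh38, yet every member amplicon lies inside its mouse gene on GRCm38 (GENCODE M21), a build those notes also list. Amplicon sequences were read from the transcripts of that annotation. The labels do not state which panel is called 1. Where both panels hold a gene, the larger total decided which is reported.

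Each panel was fitted alone on all 36 mice with edgeR 4.0.16 (R 4.3.3): TMM factors, the default filter by group, and a robust two-sided quasi-likelihood F test, adjusted by Benjamini and Hochberg over 1038 genes. The SE was obtained as |log2 fold change|/√F. TMM makes each change relative to most genes of its panel, not to total RNA. The 5 genomic DNA control rows per panel (19 counts in all libraries) were left out. Within groups every pair of libraries differed beyond sampling noise (lowest chi-square per degree of freedom 6.32), so none repeats the counts of another. That check cannot show that libraries are independent, and each mouse counts as 1 replicate by its number in the labels. No mouse number occurs in 2 groups, so nothing was paired, and the labels give no batch. The fit was tested on simulated counts. Alternatives were other factors (RLE, totals, reference genes), filters, DESeq2 1.42.0, limma 3.58.1 on the regularized log, only the groups compared, thinned counts, the other panel, and mice left out.

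The members and lists were chosen with earlier results of these data known. Every member is named. Called members have full values, at most 8 per comparison, and the rest their log2 fold change. From other lists the 2 called genes with the smallest adjusted p in each direction could be named. For the list of T cell lineage factors, 1 gene and the counts that hold it are not reported here.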

Additional observations from a re-analysis of the deposited data

Results flagged for a closer look

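In 9 of 68 groups of 9 mice, 1 tumour lay far from the others of its group in a member's level. For normally distributed values chance gives about 1 in 20 groups, and the 68 groups share the same 36 mice. The measure is the gap to the nearest other mouse as a share of the group's whole range, both taken on the log2 CPM scale. For Il2rb in BA+RT tumours it was 0.711, with mouse 40 at 108 CPM and the next at 42.6. For Il12rb1 in control tumours it was 0.621, with mouse 8 at 324 CPM and the next at 98.0. Il6 gave 0.603 in RT tumours, with mouse 25 at 44.6 CPM below the others, and 0.523 in BA+RT tumours, with mouse 45 at 303 CPM. Il12rb2 gave 0.589 in BA tumours, with mouse 12 at 8.14 CPM below the others, and 0.522 in RT tumours, with mouse 19 at 5.17 CPM. Il17ra gave 0.533 with RT mouse 25 at 577 CPM. Il18 gave 0.523 with control mouse 6 at 271 CPM, the lowest of its group. Il1r1 gave 0.522 with BA+RT mouse 37 at 797 CPM.

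In 2 members the effect of BA depended on radiation: Il12rb2, by -1.34 on the log2 scale, and Il2rg, by -0.54, both with an edgeR adjusted p under 0.05. Without control mouse 8, RT mouse 24 and BA+RT mouse 40 together, Il2rb gave -1.39 (adjusted p = 0.000852). Each of these mice was the highest of its group for Il2rb, while BA mouse 15, the highest BA tumour, was kept. That choice favours a call, so this run adds nothing to the main test, where Il2rb was not called (-0.97, adjusted p = 0.0702).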

How the results depend on the processing

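Of 102 combinations of a tested member and a comparison, 42 were called and 60 were not. None of the 42 changed direction under any alternative run in which it was tested. Counting only such runs, 32 kept their call under every alternative other than single mice, 36 with every single mouse left out, and 31 under both. Sparse genes were not tested in every run. Il17rb in RT against control was tested in 8 of 11 alternatives other than single mice, and Il13ra2 in BA+RT against BA in 10. Leaving out each mouse in turn gave 8 to 10 called members with RT against control, 7 to 10 with BA, 7 to 11 with BA+RT, 3 to 4 for BA+RT against RT, 9 to 12 for BA+RT against BA and 2 to 3 for the dependence of the BA change on radiation. Under factors from the reference genes that last count was 1 in place of 2, since Il2rg missed the threshold. A fit on only the groups compared does not apply to it, since it needs all 4 groups. Some results not called by edgeR passed elsewhere: Il18 with BA under total counts (0.28, adjusted p = 0.039) and under reference genes (0.27, adjusted p = 0.0325), and Il33 in BA+RT against BA (0.63, adjusted p = 0.056) with DESeq2 (0.64, adjusted p = 0.0385), under reference genes (0.84, adjusted p = 0.0159) or without BA mouse 13, RT mouse 25 or BA+RT mouse 37, 39, 40 or 44 (adjusted p between 0.0319 and 0.0497). Il18 in BA+RT against BA was called without control mouse 6 (-0.24, adjusted p = 0.0435) or BA+RT mouse 37 (-0.31, adjusted p = 0.0202). The cause was not tested. Depth limits Il13ra2, Il12rb2, Il17rb and Il10 most among the tested members, and keeps 11 members out of the tests. No paired analysis was possible because the groups share no mouse numbers.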
